A study of Mus musculus with 105 samples.

Results

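The 9 genes described here are commonly read in the cadherin switch and in epithelial to mesenchymal transition (EMT). They are the epithelial adhesion genes Cdh1 and Epcam, the mesenchymal genes Cdh2 and Vim, and the transcription factors Snai1, Snai2, Twist1, Zeb1 and Zeb2. They were picked by name as the rows of these symbols in the count matrices, and are 9 of the 34120 genes of the single-cell matrix. Earlier results of these data were known when they were chosen. All 9 passed the filter on low counts in both bulk tables. Between day 0 and day 4, Cdh1 rose in all 3 lines and Cdh2 fell in all 3. The fall of Cdh2 in TX1072 did not pass without either of 2 libraries (edgeR adjusted p = 0.071 and 0.0573), and between days 1 and 4 the change of Cdh2 did not pass in either deletion line.

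The samples were mouse embryonic stem cells (mESCs) that were kept in serum with Lif and 2i, which inhibits Gsk3 and MEK, and were differentiated by 2i/Lif withdrawal on fibronectin. They were sampled at day 0 and on days 1, 2, 3 and 4. TX1072 mESCs are a female F1 hybrid line (C57BL6/J x Cast/EiJ, hereafter B6 and Cast) in which Xist on the B6 X chromosome stands behind a promoter that answers to doxycycline, with the rtTA transactivator in Rosa26. TXdXicB6 and TXdXicCast were made from TX1072 and lack the region around Xist on the B6 or the Cast X chromosome, and each is 1 clone. All 3 lines therefore share the hybrid background, the culture medium and the way of differentiation. Bulk RNA was sequenced in 3 replicates per line and day, giving 15 TX1072 libraries of 19827011 to 39628784 counts and 30 deletion-line libraries of 16906263 to 57920260 counts. Single TX1072 cells of 1 culture a day were captured at 2000 sites and counted with unique molecular identifiers (UMIs) at the 3′ end; 1472 cells were retained. The TX1072 and deletion-line libraries were made with different kits, so levels, in counts scaled to the size of the library (CPM), are compared within a table only.

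Cdh1 encodes E-cadherin and Cdh2 encodes N-cadherin, calcium-dependent adhesion molecules whose tails bind catenins and, through them, the actin cytoskeleton. In EMT at gastrulation, epithelial cells of the epiblast lose E-cadherin, gain N-cadherin and the intermediate filament protein vimentin (Vim), and leave the epithelium. The Snail proteins (Snai1, Snai2), the zinc-finger homeobox proteins Zeb1 and Zeb2 and the bHLH protein Twist1 are known for acting on epithelial genes in this process, the Snail and Zeb proteins by binding E-box letters in promoters.

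The promoters of Epcam and Snai1 are shown because they belong to members that changed level and hold the E-box CAGGTG, or its reverse complement CACCTG, that Snail and Zeb proteins are known to bind. The capitals mark each match in the 250 bases before the RefSeq start (build GRCm38.p6). Epcam is on the plus strand at chr17:87635729-87635978 and Snai1 on the plus strand at chr2:167537945-167538194.
Epcam: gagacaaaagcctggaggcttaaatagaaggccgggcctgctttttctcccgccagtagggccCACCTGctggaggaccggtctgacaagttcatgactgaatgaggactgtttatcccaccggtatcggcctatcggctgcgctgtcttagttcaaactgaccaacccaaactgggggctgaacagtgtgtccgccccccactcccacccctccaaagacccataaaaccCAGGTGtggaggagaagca
Snai1: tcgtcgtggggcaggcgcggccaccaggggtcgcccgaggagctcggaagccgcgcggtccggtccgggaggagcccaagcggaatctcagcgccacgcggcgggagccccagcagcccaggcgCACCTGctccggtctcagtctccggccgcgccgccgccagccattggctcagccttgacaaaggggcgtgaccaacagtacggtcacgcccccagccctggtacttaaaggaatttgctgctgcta
Epcam holds 2 matches, which begin 187 and 19 bases before the start, and Snai1 holds 1, which begins 126 bases before it. Over all 32851 RefSeq promoter windows of this length, 17.22% hold at least 1 match on either strand and 2.064% hold 2 or more. Promoter windows were at hand for 5 members, and those of Vim, Twist1 and Zeb2 (4 starts) hold no match. A B6/Cast single nucleotide polymorphism (SNP) of the deposited list falls in the Epcam match nearest the start: it is G237C counted from the first printed base, and G6C counted from the first base of CAGGTG, with the B6 base named first. These matches describe letters only.

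In TX1072 mESCs, the epithelial genes rose early and stayed high. Cdh1 (chr8:106603351-106670246, plus strand, mm10) was at 236, 256 and 252 CPM in the 3 day 0 libraries and at 567, 715 and 660 CPM at day 4. The day 4 libraries were all above the day 0 libraries, and the log2 fold change was 1.38 ± 0.13 (SE, n = 3 against 3; edgeR quasi-likelihood test, adjusted p = 5.43e-08). Cdh1 had already risen by 0.48 ± 0.13 at day 1 (edgeR adjusted p = 0.0061), and the means on days 1, 2 and 3 were 345 ± 34.96, 456 ± 44.8 and 530 ± 96.8 CPM (SD, n = 3). Epcam (chr17:87635979-87651129, plus strand), which encodes a cell adhesion molecule of epithelia, followed a different course. It was at 126, 118 and 118 CPM at day 0, at 315, 359 and 296 CPM at day 2 and at 289, 263 and 267 CPM at day 4. Its rise was thus complete by day 2, with a log2 fold change of 1.43 ± 0.10 against day 0 (edgeR adjusted p = 1.37e-09). Between days 3 and 4 it moved by -0.17 ± 0.10, which did not pass the test (edgeR adjusted p = 0.239).

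Cdh2 moved the other way, and most of its fall took 1 day. Cdh2 (chr18:16588877-16809246, minus strand) was at 13.4, 22.2 and 15.2 CPM at day 0 and at 4.25, 4.72 and 3.86 CPM at day 1. No day 1 library reached the lowest day 0 library, and the log2 fold change was -1.98 ± 0.25 (edgeR adjusted p = 3.27e-06). It stayed low on days 2 and 3, with means of 3.29 ± 0.814 and 3.84 ± 0.451 CPM, and was back at 14.2, 8.07 and 7.35 CPM at day 4. The return was a rise of 1.35 ± 0.25 from day 3 (edgeR adjusted p = 0.000685), yet against day 0 the gene was still lower, by -0.77 ± 0.24 (edgeR adjusted p = 0.00916). Replicate 1 of day 4 overlapped the day 0 libraries. The fall against day 0 did not pass without day 0 replicate 2 (-0.53, edgeR adjusted p = 0.071) or without day 4 replicate 3 (-0.60, edgeR adjusted p = 0.0573).

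Markers of primitive streak and mesoderm, like Cdh2, had a higher level at day 4 than at day 3. From day 0 to day 1 they parted: Cdh2 fell while the summed level of these markers went from 15.9 ± 1.95 to 44.2 ± 1.87 CPM. The summed level of the 10 markers fixed for these cells was 23.6 ± 4.87 CPM at day 3, and at day 4 it was 352.5 CPM in replicate 1, 191.5 in replicate 2 and 152.8 in replicate 3, with 1 marker at 0 in each. The most abundant at day 4 was T (Brachyury), at 181.3, 98.39 and 70.35 CPM. The day 4 library with the most Cdh2 was thus also the library with the most streak markers, and their part in the Cdh2 level was not tested. Fewer cells of a type and less RNA per cell cannot be told apart in bulk samples.

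Vim, whose product is the intermediate filament of mesenchymal cells, rose in TX1072 in 2 steps with a dip between them. Vim (chr2:13573927-13582826, plus strand) was at 53.7, 74.8 and 44.5 CPM at day 0, at 93.5, 119 and 85.6 CPM at day 1, at 74.5, 74.3 and 69.0 CPM at day 2 and at 120, 137 and 145 CPM at day 4. The day 1 libraries lay above all day 0 libraries (log2 fold change 0.79 ± 0.16, edgeR adjusted p = 0.000702), and the day 4 libraries above all libraries of the other days. From day 1 to day 2 the level fell by 0.45 ± 0.16 on the log2 scale (edgeR adjusted p = 0.035), a fall that did not pass without 1 of 3 libraries, namely day 1 replicate 2, day 2 replicate 1 or day 2 replicate 3 (edgeR adjusted p = 0.172, 0.052 and 0.104). From day 3 to day 4 it rose by 0.64 ± 0.16 (edgeR adjusted p = 0.00712). Over the whole course the log2 fold change was 1.22 ± 0.17 (edgeR adjusted p = 4.39e-06), so that E-cadherin and vimentin transcripts rose together.

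The 2 Zeb genes went in opposite directions. Zeb1 (chr18:5591860-5775467, plus strand) was at 51.7, 55.8 and 50.7 CPM at day 0 and fell on each of the following days, to means of 34.8 ± 1.22, 17.2 ± 1.59, 9.04 ± 0.231 and 4.78 ± 1.16 CPM on days 1 to 4. No library of any day overlapped those of the day before, and the day 4 change was -3.46 ± 0.15 (edgeR adjusted p = 1.04e-12). Zeb2 (chr2:44983632-45117395, minus strand) was at 0.216, 0.341 and 0.315 CPM at day 0 and at 6.49, 3.97 and 3.63 CPM at day 4. Most of its rise fell between days 1 and 2, where the mean went from 0.553 ± 0.153 to 3.19 ± 0.690 CPM (log2 fold change 2.52 ± 0.29, edgeR adjusted p = 2.02e-06). The day 4 change was 4.03 ± 0.33 (edgeR adjusted p = 6.72e-09), the largest among the 9 genes in either direction. The antisense gene Zeb2os overlaps Zeb2, and its largest group mean was 0.142 CPM. Gm10125 overlaps Zeb1 on the other strand, with a largest group mean of 0.292 CPM, and strand use in the counting was not stated in the sources used here.

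Twist1 rose in steps and the Snail genes moved late or little. Twist1 (chr12:33957671-33959829, plus strand), a bHLH factor of mesoderm, was at 1.00, 1.33 and 1.03 CPM at day 0, at 2.97, 3.54 and 2.58 CPM at day 1 and at 7.21, 5.69 and 7.14 CPM at day 4, with a day 4 change of 2.58 ± 0.20 (edgeR adjusted p = 3.16e-09). Snai1 (chr2:167538195-167542814, plus strand) was at 1.00, 2.54 and 2.07 CPM at day 0 and at 1.83, 1.25 and 1.33 CPM at day 3, and rose to 4.65, 4.07 and 3.51 CPM at day 4. Its change from day 3 to day 4 was 1.46 ± 0.30 (edgeR adjusted p = 0.00151), and no earlier day passed the test against day 0. Snai2 (chr16:14705852-14709385, plus strand) had few counts, at 0.433, 0.379 and 1.08 CPM at day 0 and 0.0342, 0.0953 and 0.36 CPM at day 4. The fall by 1.83 ± 0.70 on the log2 scale (edgeR adjusted p = 0.0325) did not pass without day 0 replicate 3, day 4 replicate 1 or day 4 replicate 2 (edgeR adjusted p = 0.172, 0.117 and 0.101). At day 4 the library of replicate 1 was the highest of the 3 for Snai1, Zeb2, Cdh2, Twist1 and Epcam and the lowest for Zeb1, Vim, Cdh1 and Snai2.

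All 9 genes thus passed the test between day 4 and day 0 in TX1072, 6 higher and 3 lower, where 59.6% of the 18871 genes tested passed in either direction (30.2% higher and 29.4% lower). The share called was high across the whole transcriptome, and a count of 9 among 9 says little beside it. At day 1, 6 of 9 had passed (background 47.0%), at day 2, 6 (56.0%) and at day 3, 7 (56.1%). Zeb2 at day 1, at 0.95 ± 0.39, did not pass without a replicate block (edgeR adjusted p = 0.0543) and passed with it (edgeR adjusted p = 0.0244), and Snai2 at day 3 did likewise (edgeR adjusted p = 0.077 and 0.033). Between consecutive days, 5 of 9 passed from day 1 to day 2 (39.2%), 2 from day 2 to day 3 (26.7%; Zeb1 and Twist1) and 4 from day 3 to day 4 (27.8%; Cdh2, Snai1 and Vim higher and Zeb1 lower). Twist1 at the step from day 2 to day 3 (edgeR adjusted p = 0.0375) did not pass without the filter on low counts (edgeR adjusted p = 0.108), nor when any 1 of the 6 libraries but day 3 replicate 3 was left out (edgeR adjusted p = 0.0681 to 0.189).

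**Figure D1:**
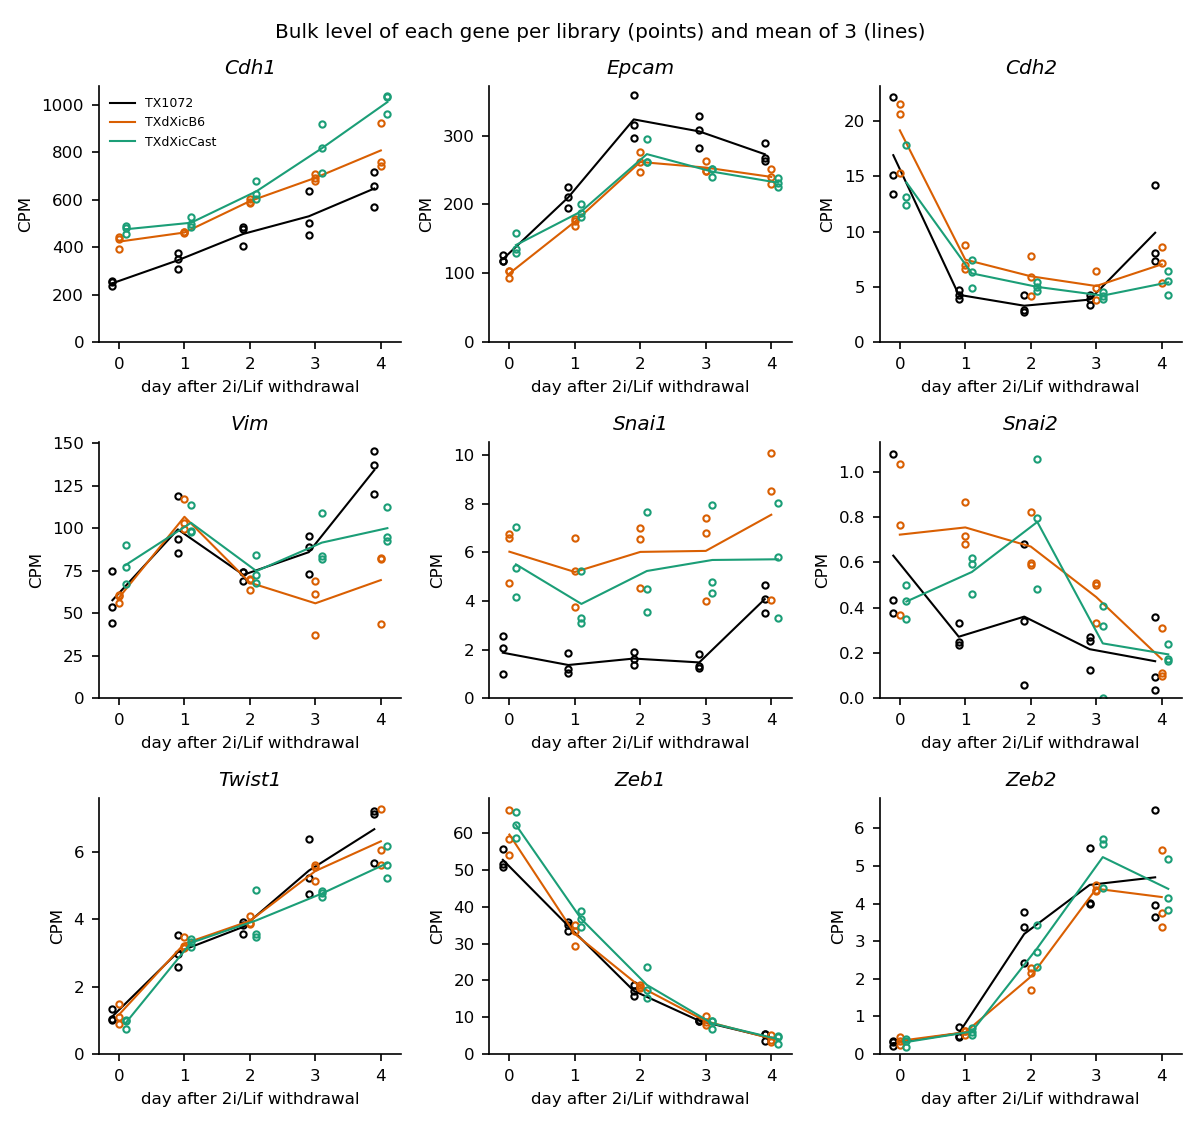
Bulk level of each of the 9 genes in CPM (vertical axes, starting at 0) against the day after 2i/Lif withdrawal (horizontal axes); points are single libraries, lines are means of 3, and black, orange and green stand for TX1072, TXdXicB6 and TXdXicCast. TX1072 and the deletion lines come from different kits and are to be read for their course and not for their height; Cdh1 climbs in every line, Zeb1 falls in every line, and the black Cdh2 line turns up at day 4 to a mean of 9.89 CPM.

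In the deletion lines too, Cdh1 was higher at day 4 than at day 0 and Cdh2 was lower. In TXdXicB6, Cdh1 was at 435, 444 and 391 CPM at day 0 and at 759, 922 and 742 CPM at day 4, and in TXdXicCast at 481, 454 and 491 CPM and at 961, 1034 and 1039 CPM. In both lines the day 4 libraries lay above every day 0 library, with log2 fold changes of 0.93 ± 0.09 (edgeR adjusted p = 6.33e-10) and 1.09 ± 0.09 (edgeR adjusted p = 2.32e-11). Cdh2 was at 15.3, 21.5 and 20.6 CPM at day 0 and 7.15, 8.58 and 5.36 CPM at day 4 in TXdXicB6, and at 12.4, 17.9 and 13.1 CPM and 5.49, 4.23 and 6.47 CPM in TXdXicCast. The groups did not overlap in either line, and the changes were -1.44 ± 0.22 (edgeR adjusted p = 2.73e-06) and -1.41 ± 0.22 (edgeR adjusted p = 3.29e-06). Between days 3 and 4 the mean of Cdh2 went from 5.07 ± 1.31 to 7.03 ± 1.62 CPM in TXdXicB6 and from 4.20 ± 0.335 to 5.40 ± 1.12 CPM in TXdXicCast, a step that was not tested in these lines.

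The Zeb genes, Twist1 and Epcam also moved in the deletion lines as in TX1072. Zeb1 fell by 3.82 ± 0.19 on the log2 scale in TXdXicB6 and by 3.93 ± 0.19 in TXdXicCast, and Zeb2 rose by 3.53 ± 0.27 and 3.73 ± 0.27. Twist1 rose by 2.42 ± 0.18 and 2.62 ± 0.18, and Epcam by 1.27 ± 0.08 and 0.71 ± 0.08. The largest edgeR adjusted p among these 8 changes was 1.19e-08, for Epcam in TXdXicCast. Snai2 was lower by -2.14 ± 0.51 in TXdXicB6 (edgeR adjusted p = 0.000662) and by -1.16 ± 0.51 in TXdXicCast (edgeR adjusted p = 0.0443), and the latter did not pass when day 0 replicate 2, day 0 replicate 3, day 4 replicate 1 or day 4 replicate 2 was left out (edgeR adjusted p from 0.0829 to 0.136).

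Vim and Snai1 did not pass the test between day 4 and day 0 in either deletion line. Vim was at 60.4, 60.9 and 56.2 CPM at day 0 and at 82.2, 82.8 and 43.6 CPM at day 4 in TXdXicB6, where replicate 3 alone lay below day 0 and the change of 0.23 ± 0.19 had an edgeR adjusted p of 0.299. Without that library the change was 0.49 and passed (edgeR adjusted p = 0.0189). In TXdXicCast, Vim was at 77.5, 67.4 and 90.2 CPM and at 113, 94.98 and 92.8 CPM, with a change of 0.35 ± 0.19 (edgeR adjusted p = 0.0973), which was 0.33 and passed without the filter on low counts (edgeR adjusted p = 0.025). Snai1 changed by 0.33 ± 0.34 (edgeR adjusted p = 0.425) and 0.09 ± 0.35 (edgeR adjusted p = 0.823), and its 3 replicates were spread widely within each group, from 4.05 to 10.1 CPM at day 4 in TXdXicB6. In all, 7 of 9 genes passed in TXdXicB6 (background 59.5%; 30.0% higher and 29.5% lower) and 7 in TXdXicCast (69.8%; 36.2% and 33.6%). On the earlier days, 5, 6 and 6 of 9 passed against day 0 in TXdXicB6 (45.7, 56.1 and 57.8%) and 5, 6 and 6 in TXdXicCast (58.9, 66.4 and 68.6%). Whether the Vim and Snai1 changes differ between TX1072 and the deletion lines was not tested, since the kits cannot be told apart from the lines.

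The RNA of TXdXicCast day 0 was degraded and was fragmented at a lower temperature for a shorter time, so day 4 was also set against day 1. By that measure, 7 of 9 genes passed in TXdXicB6 (background 56.6%) and 6 in TXdXicCast (59.4%). Cdh1 rose by 0.81 ± 0.09 and 1.01 ± 0.09 and Zeb1 fell by 2.95 ± 0.19 and 3.17 ± 0.19 on the log2 scale. Cdh2 changed by -0.08 ± 0.22 and -0.20 ± 0.23 and did not pass (edgeR adjusted p = 0.785 and 0.477), its fall having come before day 1. Vim was lower at day 4 than at day 1 in TXdXicB6, by -0.62 ± 0.19 (edgeR adjusted p = 0.00678), but not without day 1 replicate 1 or day 4 replicate 3 (edgeR adjusted p = 0.0537 and 0.109).

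The clones differed in few of the 9 genes. At day 0, Epcam was higher in TXdXicCast (129, 136 and 158 CPM) than in TXdXicB6 (103, 92.7 and 103 CPM) by 0.50 ± 0.08 (edgeR adjusted p = 0.000117), 1 of 9 genes beside a background of 19.8%; this comparison rests on the degraded libraries. At days 1 and 2, 0 of 9 passed with edgeR (backgrounds 0.402% and 0.372%) and 0 with DESeq2, and the unadjusted p was under 0.05 for 0 of 9 at day 1 and for 1 of 9 at day 2. At day 3, 0 of 9 passed with edgeR (1.26%), while 2 of 9, Vim and Cdh1, had an unadjusted p under 0.05; Vim was at 0.71 ± 0.19 (edgeR adjusted p = 0.0589). Vim passed at day 3 with the replicate block (0.73, edgeR adjusted p = 0.0296) and with DESeq2 (0.73, adjusted p = 0.0133), being at 61.6, 69.0 and 36.9 CPM in TXdXicB6 and 83.6, 82.1 and 109 CPM in TXdXicCast. At day 4, Cdh1 was higher in TXdXicCast by 0.32 ± 0.09 (edgeR adjusted p = 0.0268), 1 of 9 beside 5.86%, and did not pass when any of 4 of the 6 libraries was left out (TXdXicB6 replicates 1 and 3, TXdXicCast replicates 2 and 3; edgeR adjusted p from 0.0684 to 0.149) or when low counts were not filtered (edgeR adjusted p = 0.134). The change from day 1 to day 4 differed between the clones for 0 of 9 with edgeR (background 0.749%) and for 0 with DESeq2, and had an unadjusted p under 0.05 for 1, Vim. For Cdh1 the 95% interval of that difference ran from -0.06 to 0.46 and for Cdh2 from -0.77 to 0.54 on the log2 scale.

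**Figure D2:**
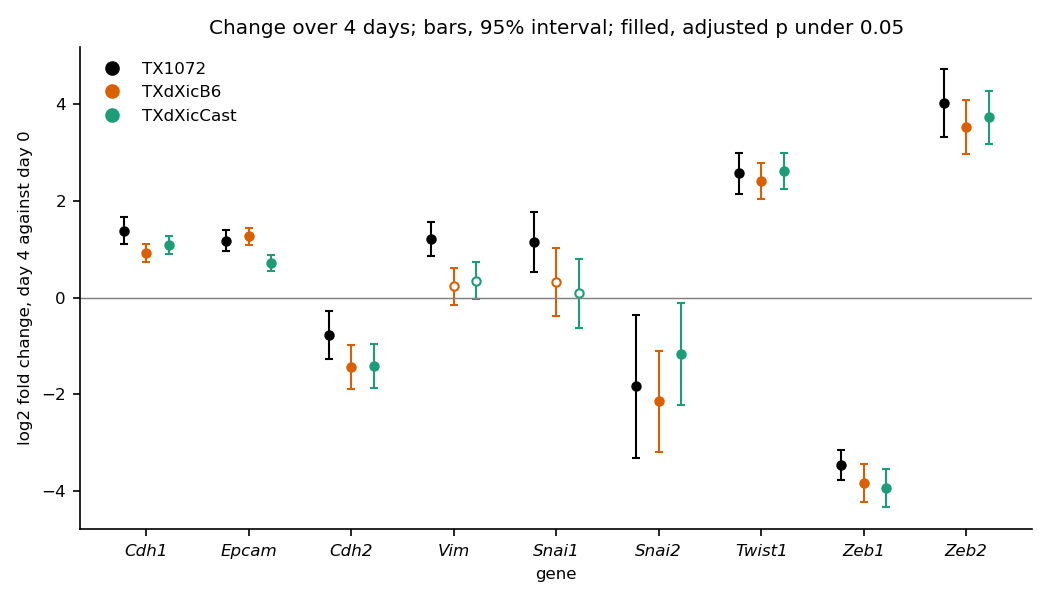
Log2 fold change of each gene between day 4 and day 0 (vertical axis) in TX1072 (black), TXdXicB6 (orange) and TXdXicCast (green); bars are 95% intervals, and filled points passed an edgeR adjusted p of 0.05. Zeb2, Twist1, Cdh1 and Epcam lie above 0 and Zeb1, Cdh2 and Snai2 below 0 in all 3 lines, while the open points of Vim and Snai1 in the deletion lines have intervals that include 0.

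The cells are from an F1 hybrid, so reads over SNPs separate the alleles, and all 9 genes are autosomal. The transcribed exons carry 22 deposited SNPs in Cdh1, 39 in Cdh2, 21 in Epcam, 34 in Vim and 44 in Zeb1, but 0 in Snai1, 2 in Twist1, 6 in Snai2 and 13 in Zeb2. At day 4 in TX1072, Twist1 had 59, 36 and 54 allele-specific (AS) counts, Zeb2 had 11, 8 and 7, and Snai2 had 0, 2 and 3. Snai1 and Snai2 were not tested, nor was Zeb2 in TX1072, and Twist1 and Zeb2 did not pass between days 0 and 4 where they were tested. As a reference, 50.5 to 51.4% of all AS counts of a library came from B6. The B6 share of Zeb1 was 61.6, 64.4 and 65.4% at day 0 (318 to 591 AS counts a library), 88.0, 88.4 and 88.3% at day 2 and 88.0, 87.0 and 93.0% at day 4 (25 to 71 AS counts). The share rose in every replicate while the total fell, so the Cast transcript fell further than the B6 transcript, and the B6 to Cast ratio changed by 2.33 ± 0.35 on the log2 scale (edgeR adjusted p = 3.54e-07).

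Vim and Epcam went from B6-skewed towards equal shares. The B6 share of Vim was 79.5, 77.1 and 83.9% before withdrawal, 63.9, 62.6 and 65.0% after 1 day and 54.0, 51.0 and 54.3% on day 4, and that of Epcam was 72.8, 74.2 and 72.6%, then 61.0, 60.5 and 60.1%, then 56.7, 56.5 and 56.4%. Neither gene had a day 4 library that overlapped day 0, and the log2 ratio changed by -1.79 ± 0.10 for Vim (edgeR adjusted p = 2.44e-22) and by -1.07 ± 0.07 for Epcam (edgeR adjusted p = 2.85e-19). Both genes rose in total over this time, and most of the shift of either came in the first day, with changes of -1.15 ± 0.10 and -0.83 ± 0.07 from day 0 to day 1 (edgeR adjusted p = 9.69e-14 and 1.75e-14).

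The B6 share of Cdh1 was lowest on day 1. It was 50.1, 50.2 and 51.3% before withdrawal and 42.1, 42.1 and 43.1% after 1 day. The mean was 47.0 ± 0.677% on day 2, still with every library below those of day 0, and 49.0 ± 0.523% on day 3, and the libraries of day 4 were at 49.6, 50.6 and 50.6%. The change from day 0 to day 1 was -0.47 ± 0.06 (edgeR adjusted p = 3.55e-08) and that from day 1 to day 4 was 0.46 ± 0.06 (edgeR adjusted p = 4.01e-09), while day 4 and day 0 differed by -0.01 ± 0.06 (edgeR adjusted p = 0.964). Cdh2, with 76 to 199 AS counts a library on these days, went from 53.6, 60.3 and 50.8% to 43.4, 38.2 and 43.8% (-0.77 ± 0.24, edgeR adjusted p = 0.0204), which did not pass with DESeq2 (adjusted p = 0.152) or without replicate 1 or replicate 2 (edgeR adjusted p = 0.0748 and 0.331). In TX1072 the ratio thus changed between days 0 and 4 in 4 members, beside a background of 15.0% of the 13476 genes tested, between days 0 and 1 in 4 (11.5%) and between days 1 and 4 in 4 (13.5%), of which Zeb1 did not pass without replicate 3 (1.05 in place of 1.45, edgeR adjusted p = 0.211). The ratio itself departed from balance in 3 members at day 0 (44.2%; Epcam, Vim and Zeb1) and in 4 at day 4 (35.9%; these and Cdh2). At day 4, Cdh2 (edgeR adjusted p = 0.0487) did not pass with DESeq2 (adjusted p = 0.167), with at least 100 AS counts (edgeR adjusted p = 0.0536) or without any 1 of the replicates (edgeR adjusted p = 0.139, 0.212 and 0.082). Vim did not pass there with DESeq2 (adjusted p = 0.0798) or without replicate 1 or replicate 3 (edgeR adjusted p = 0.0593 and 0.107).

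The deletion lines were read for the same shares after the TX1072 shares had been seen. In TXdXicB6 the Zeb1 share went from 61.5, 57.5 and 57.5% to 76.5, 75.3 and 71.7%, and in TXdXicCast from 59.1, 60.6 and 60.8% to 85.5, 90.2 and 90.7%, with ratio changes of 1.10 ± 0.28 (edgeR adjusted p = 0.0018) and 2.19 ± 0.31 (edgeR adjusted p = 2.01e-08). The change in TXdXicB6 did not pass without replicate 2 (edgeR adjusted p = 0.071), and the difference between these changes, 1.09 ± 0.44, did not pass (edgeR adjusted p = 0.298). Vim changed by -1.26 ± 0.10 in TXdXicB6 and -1.77 ± 0.09 in TXdXicCast, and Epcam by -0.81 ± 0.08 and -1.14 ± 0.07 (edgeR adjusted p = 1.54e-16, 3.5e-28, 2.76e-13 and 5.51e-23). The Vim change was larger in TXdXicCast by -0.52 ± 0.14 (edgeR adjusted p = 0.0164), 1 member beside a background of 2.56%, and did not pass without replicate 1, 2 or 3 (edgeR adjusted p = 0.0655, 0.11 and 0.0671). Of the 5 members named above, Zeb1, Vim and Epcam thus passed between days 0 and 4 in both lines (backgrounds 16.3% and 21.6%), and Cdh2 in neither (edgeR adjusted p = 0.107 and 0.851). The Cdh1 share was lowest on day 1 here too, at 42.5, 43.7 and 42.2% in TXdXicB6 and 40.6, 40.6 and 40.4% in TXdXicCast at day 1, all below the day 0 and day 4 libraries of the same line. On day 2 its mean was 47.8 ± 1.16% in TXdXicB6 and 46.0 ± 1.60% in TXdXicCast, beside 49.7 ± 0.886% and 49.8 ± 1.74% before withdrawal. The ratio changed from day 0 to day 1 by -0.40 ± 0.06 (edgeR adjusted p = 7.17e-08) and -0.54 ± 0.05 (edgeR adjusted p = 2.01e-13), and 4 members passed over that day in each line (backgrounds 9.49% and 15.2%). Among them, Zeb1 in TXdXicB6 changed by 0.73 (edgeR adjusted p = 0.000931), and without replicate 3 by 0.41, which did not pass (edgeR adjusted p = 0.289). From day 1 to day 4, 2 members passed in TXdXicB6 (16.1%; Cdh1 and Vim) and 4 in TXdXicCast (15.6%). In TXdXicCast, Zeb1 did not pass over these days without replicate 1 or replicate 2 (edgeR adjusted p = 0.0604 and 0.0967), nor Epcam without replicate 2 (edgeR adjusted p = 0.184). The ratio departed from balance for Epcam, Vim and Zeb1 in both lines, 3 members each at day 0 (36.7% and 45.3%) and at day 4 (39.6% and 38.3%). In 4 deletion-line libraries the share of all counts assigned to an allele was low, at 5.21, 9.57, 20.3 and 22.9% beside 29.9 to 34.9% in the others, and leaving them out changed no call on these 5 genes.

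**Figure D3:**
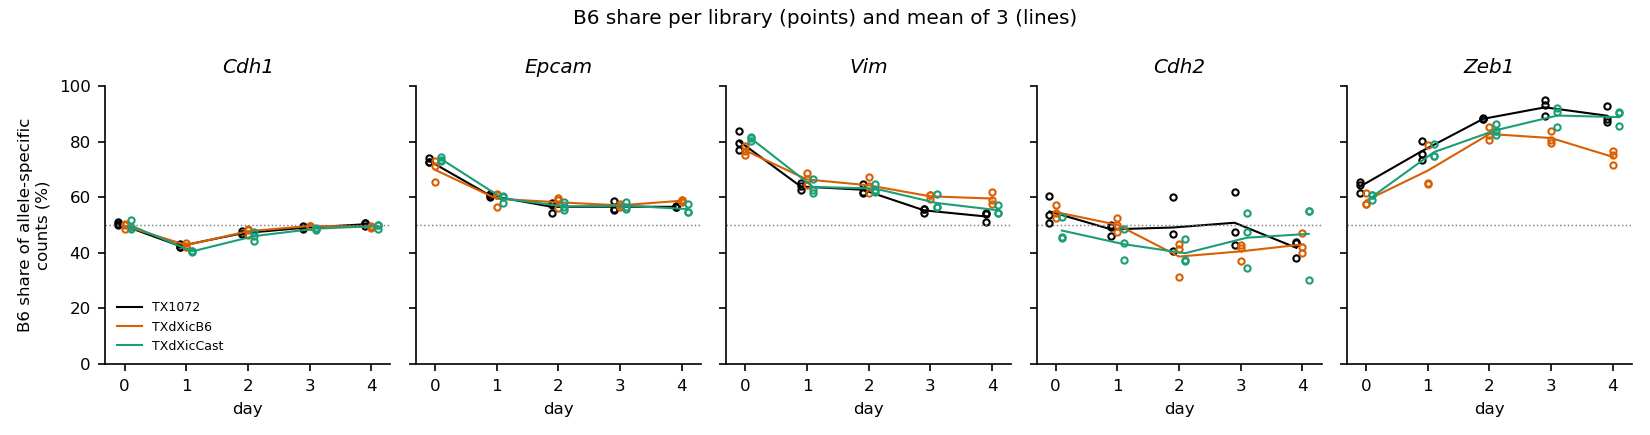
B6 share of the AS counts (vertical axis, percent; dotted line at equal shares) against the day for 5 genes with enough AS counts; points are libraries, lines are means of 3, and colours are the lines as named in the first panel. Zeb1 moves up to means of 89.3, 74.5 and 88.8% at day 4, Vim and Epcam move down towards equal shares, and Cdh1 dips at day 1 in each line.

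The single cells were 1 culture a day, with no replicate, and they came from the population of TX1072 bulk replicate 1, so they are no independent repeat of it. The log2 change of Cdh2 from day 0 to day 4 was 0.09 in that bulk replicate and -0.69 in the cells, that of Snai2 was -3.66 and -0.58, that of Twist1 2.85 and 3.66, and that of Snai1 2.21 and 1.51. For Cdh1 it was 1.27 and 1.43, for Epcam 1.20 and 1.13, for Vim 1.165 and 1.335, for Zeb1 -3.91 and -3.88 and for Zeb2 4.91 and 5.04. The number of retained cells was 277, 325, 341, 257 and 272 on days 0 to 4, of 400 capture sites each, with medians of 138565, 124651, 125591, 130377 and 171158 UMIs a cell. All 2000 cell names were distinct, and each of the 40 row barcodes was used in every capture column by design. Among the single-cell libraries, only those of day 1 were also sequenced in a rapid run mode. In the cells, day 1 can therefore not be told apart from that added run. Over the summed UMIs, Cdh1 went from 191 CPM at day 0 (95% exact Poisson interval 187 to 196) to 515 CPM at day 4, and Epcam from 158 CPM to 409 CPM at day 2 and 345 CPM at day 4. Vim went from 74.6 to 188 CPM and Zeb1 from 40.9 to 2.77 CPM. Cdh2 was at 4.98, 1.88, 1.97, 1.37 and 3.08 CPM. Of its 195 UMIs at day 0, 79 came from 1 capture column, and 23 of 44 at day 3. With the column that held most Cdh2 UMIs left out on each day, a choice made after seeing the data, the levels were 3.25, 1.44, 1.56, 0.721 and 2.18 CPM. These intervals cover counting error only.

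How many cells held these transcripts was read after each cell had been thinned to 40000 UMIs. Cdh1 was found in 92.4% of cells at day 0 (95% exact interval 88.6 to 95.3) and in 97.4% at day 4. Epcam was found in 87.0% and 99.6%. The rise of Cdh1 was mainly one of UMIs per cell. Before thinning, the median was 23 Cdh1 UMIs a cell at day 0 and 72 at day 4. The median depth went from 138565 to 171158 UMIs a cell between these days. Zeb1 was found in 38.3% of cells (32.5 to 44.3) at day 0 and in 30.2, 13.5, 7.78 and 2.94% on days 1 to 4. Twist1 was found in 1.81% of cells at day 0 and 16.2% (12.01 to 21.1) at day 4. The shares were 3.97% and 13.2% (9.45 to 17.8) for Snai1 and 0.361% and 6.62% (3.97 to 10.3) for Zeb2. With 1 culture a day, these intervals cover counting error only and make no test between days. Cells of a type that should lack these genes were not analysed here, so the share that free RNA gives was not measured.

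The Cdh2 transcripts of a day came from few cells. Cdh2 was found in 28 of 277 thinned cells at day 0 and in 11, 10, 11 and 17 on the later days, and the 5 cells with the most Cdh2 held 43.1% of its UMIs at day 0 and 60.7% at day 4. Snai2 was concentrated further, with 75.3% and 92.4% of its UMIs in 5 cells. Of the 17 cells with Cdh2 at day 4, 16 (94.1%) also held Cdh1, beside 97.65% of the cells without Cdh2. Nearly all cells held Cdh1, so this overlap says little on the cells with Cdh2. Vim and Cdh1 were found in the same cell in 67.28% of cells at day 4, beside 67.34% from the product of their shares. Zeb1 and Zeb2 were found together in 1, 1, 1, 1 and 0 cells on days 0 to 4, where the product of their shares is at most 0.593% of the cells of a day.

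**Figure D4:**
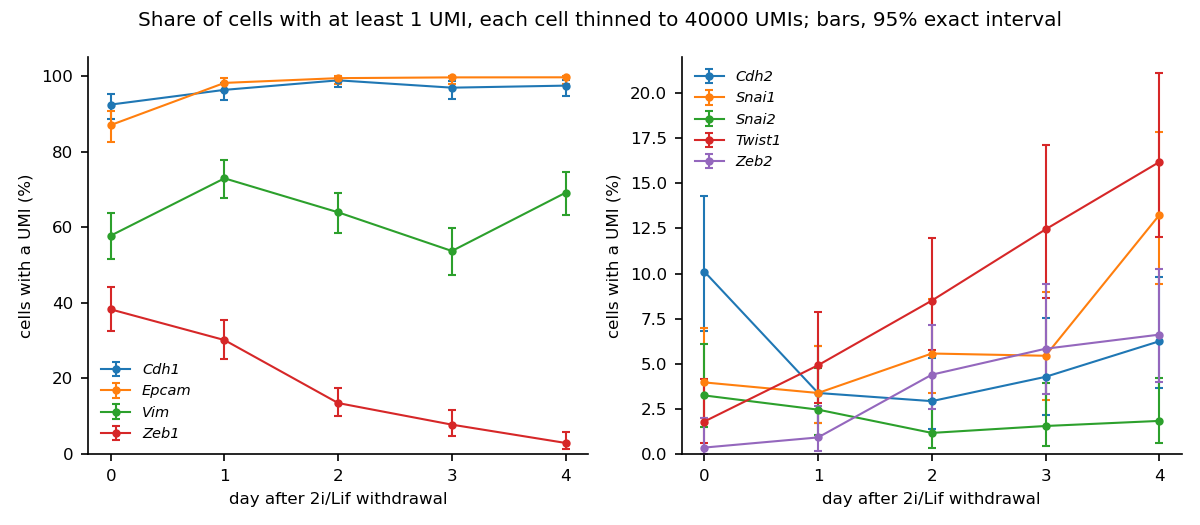
Share of retained TX1072 cells with at least 1 UMI of each gene (vertical axes, percent) against the day, after thinning each cell to 40000 UMIs; bars are 95% exact binomial intervals for counting error, 1 culture a day, and the right panel has a smaller scale. Cdh1 and Epcam stay near the top from day 1 on, Zeb1 falls from 38.3 to 2.94%, and Twist1, Snai1 and Zeb2 climb to 16.2, 13.2 and 6.62%.

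Unspliced UMIs are those that reach into introns. Their share among Cdh1 UMIs was 4.63% at day 0 (95% exact interval 4.18 to 5.12) and 5.37, 6.34, 8.08 and 12.3% (11.9 to 12.7) on days 1 to 4, while over all genes it was 10.7, 13.3, 10.95, 11.7 and 11.3%. For Cdh2 most UMIs were unspliced, with a share of 61.7% before withdrawal (57.3 to 66.0), 81.0% on day 3 (75.3 to 85.8) and 76.5% on day 4 (72.8 to 79.9). Epcam was at 4.70% and 3.41% at days 0 and 4 and Vim at 1.63% and 2.25%. Zeb2 went from 78.1% (25 of 32 UMIs, interval 60.0 to 90.7) to 49.8% (45.4 to 54.2), and Zeb1 from 43.9% through 32.5% at day 2 to 48.3%. There was no replicate for these shares, and UMIs of 1 cell are not independent, so the intervals cover counting error only and make no test between days. Only day 1 had the added rapid run, and its part in the unspliced shares of that day was not tested.

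In the cells, the AS shares were read per cell as well. Zeb1 was at 51.7% B6 at day 0 (107 of 207 AS UMIs, exact interval 44.7 to 58.7) and at 86.9, 93.5 and 80.9% on days 1 to 3, with 6 of 6 UMIs from B6 at day 4. Among the 17 day 0 cells with at least 5 AS UMIs of Zeb1, 7 held B6 only, 6 held Cast only and 4 held both, and at day 1 all 9 such cells held B6 only. Vim went from 80.7 to 49.9% B6 and Epcam from 60.1% (58.2 to 61.9) on day 0 to 50.8% (49.6 to 51.9) on day 4. Cdh1 was at 60.5% on day 0 (57.9 to 63.1), 48.8% on day 1 (46.5 to 51.2), 50.4% on day 2 (48.5 to 52.3) and 54.3% on day 4 (52.8 to 55.8). With 1 culture a day and UMIs of 1 cell not independent, these intervals cover counting error only and make no test between days. The part of the added rapid run in the AS shares of day 1 was not tested either. The Cdh1 share of day 4 was below that of day 0, unlike the bulk shares. The Zeb1 share of day 0 and the Epcam shares of days 0 and 4 were below those of every TX1072 bulk library of the same day. The 3′ UMIs and the whole-transcript reads cover different SNPs, and the part of this in these differences was not tested.

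E-cadherin acts with catenins, and in TX1072 the log2 fold changes of the 3 named here were smaller than that of Cdh1. Beta-catenin (Ctnnb1) was at 1090 ± 99.3 CPM at day 0 and 1139 ± 87.5 CPM at day 4 in TX1072 (log2 fold change 0.06 ± 0.10, edgeR adjusted p = 0.615), while alpha-catenin (Ctnna1) rose by 0.59 ± 0.12 and p120-catenin (Ctnnd1) by 0.90 ± 0.20 (edgeR adjusted p = 0.000416 and 0.000628). In the deletion lines, Ctnnd1 rose by 1.07 in TXdXicB6 and by 1.49 in TXdXicCast, beside 0.93 and 1.09 for Cdh1, on the log2 scale. Of the 11 tested genes of the cadherin-catenin complex, 7 rose, 1 fell and 3 did not pass, with a median log2 fold change of 0.90 beside -0.03 over all genes, of which 30.2% rose and 29.4% fell. The adhesion receptor Nectin2 went from 53.8 ± 2.69 to 171 ± 4.63 CPM and the actin linker vinculin (Vcl) from 92.2 ± 7.56 to 264 ± 35.4 CPM, and Ctnnd2, a catenin of neurons, fell by 1.09 ± 0.20 on the log2 scale. Among the other cadherins, 12 of 17 rose and 2 fell, with a median of 2.38. Cdh10 went from 0.0343 ± 0.0384 to 7.39 ± 0.602 CPM, P-cadherin (Cdh3) rose by 1.26 ± 0.15, Cdh24 by 0.66 ± 0.21, and R-cadherin (Cdh4) fell from 35.6 ± 9.79 to 6.67 ± 1.25 CPM.

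The listed genes of epithelial junctions rose almost without exception in TX1072. This list, like the other gene lists, was chosen with earlier results of these data known, so its counts are no independent test. Of 30 tested, 29 rose and 1 fell between day 0 and day 4 (30.2% and 29.4% over all genes), with a median of 3.22. The keratins of simple epithelia led them, Krt8 going from 2.75 ± 1.11 to 897 ± 115 CPM and Krt18 from 2.81 ± 0.489 to 800.3 ± 151 CPM, followed by the tight junction gene Marveld3 (log2 fold change 8.06 ± 0.36). The desmosomal cadherin Dsg2 was the gene that fell, by 0.44 ± 0.18 on the log2 scale (edgeR adjusted p = 0.0375). Of the 30, 23 rose and 1 fell in TXdXicB6 (30.0% and 29.5% over all genes), and 25 rose and 2 fell in TXdXicCast (36.2% and 33.6%). In TX1072 the regulators of epithelial identity were split, 6 of 12 rising and 4 falling. The splicing regulator Esrp1 rose from 0.125 ± 0.0503 to 108 ± 2.83 CPM, and Ovol2 and Grhl2 by 2.41 ± 0.22 and 2.23 ± 0.12, whereas Ehf, Klf5 and Elf3 fell by 3.55 ± 0.42, 2.36 ± 0.24 and 2.05 ± 0.12 on the log2 scale.

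More mesenchymal genes rose than fell in TX1072. Of 25 tested genes for matrix and adhesion of mesenchymal cells, 17 rose and 4 fell, with a median of 2.25. In TXdXicB6, 15 rose and 7 fell (30.0% and 29.5% over all genes), and in TXdXicCast 17 rose and 4 fell (36.2% and 33.6%). Their summed level went from 1625 ± 277 to 1846 ± 84.6 CPM in TX1072 between days 0 and 4. It went from 3097 ± 215 to 1637 ± 132 CPM in TXdXicB6 and from 3565 ± 325 to 2336 ± 198 CPM in TXdXicCast. The RNA of TXdXicCast day 0 was degraded. At day 1 the sums were 2262 ± 274 CPM in TXdXicB6 and 2221 ± 123 CPM in TXdXicCast. Against day 1, the TXdXicCast sum was thus no lower at day 4. Fn1 was the most abundant of these genes at day 0 in each line. The matrix protein gene Thbs1 went from 1.47 ± 0.762 to 126 ± 17.5 CPM, and the crosslinking enzyme gene Loxl2 and the receptor gene Axl rose by 5.00 ± 0.30 and 4.00 ± 0.26. In TX1072, fibronectin (Fn1) fell from 664 ± 206 to 155 ± 19.9 CPM, the neural adhesion gene Ncam1 by 3.46 ± 0.18, the integrin gene Itgav by 0.42 ± 0.11 and the matricellular gene Ccn2, named after its values were seen, by 0.74 ± 0.20 on the log2 scale. Of 14 other EMT transcription factors, 8 rose, among them Snai3 (4.96 ± 0.27), Sox4 (4.39 ± 0.24) and Tcf4 (0.62 ± 0.12), and 2 fell, among them Klf8 by 2.57 ± 0.17 on the log2 scale, with a median of 0.38. Of 17 TGF-beta ligands, receptors and Smads, 9 rose and 3 fell, with a median of 0.32. Over all genes 30.2% passed as higher and 29.4% as lower, and beside that the counts of these lists say little on their own. Tgfb2 and its receptor gene Tgfbr2 rose by 3.28 ± 0.30 and 2.56 ± 0.23 and the pathway repressor gene Skil by 1.52 ± 0.14, whereas the activin subunit gene Inhbb fell by 2.53 ± 0.26, the inhibitory Smad7 by 1.02 ± 0.18 and the receptor gene Acvr1b by 0.38 ± 0.12.

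**Figure D5:**
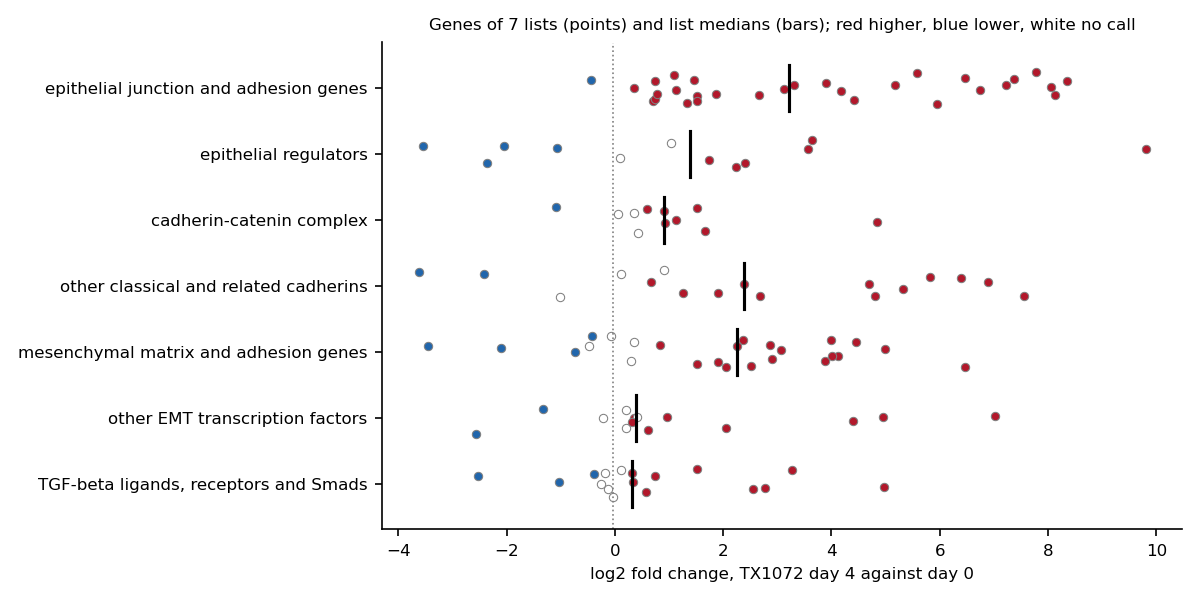
Log2 fold change between day 4 and day 0 in TX1072 (horizontal axis) for every tested gene of 7 lists (rows); red points rose and blue points fell at an edgeR adjusted p of 0.05, white points did not pass, black bars are list medians and the dotted line is the median of all genes at -0.03. In the row of epithelial junction genes, all points but Dsg2 lie to the right of 0.

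The markers of cell types placed these changes beside the loss of the naive state. Over all genes 30.2% rose and 29.4% fell in TX1072, and the marker counts stand beside these shares. The 12 markers of pluripotent cells summed to 8128 ± 259 CPM at day 0, none being at 0, and to 2217 ± 66.9 CPM at day 4. Of them 8 fell, led by Klf4 (-5.66 ± 0.23), Tfcp2l1 (-4.72 ± 0.16) and Esrrb (-3.48 ± 0.20), and 4 rose, among them the primed-state genes Fgf5 (10.01 ± 0.34), Dnmt3b (1.56 ± 0.13) and Otx2 (1.35 ± 0.16). Of 8 tested streak and mesoderm markers 6 rose, led by Cer1, Eomes and Mixl1 (7.21 ± 1.07, 4.93 ± 0.24 and 4.26 ± 0.47), and all 8 tested endoderm markers rose, led by Foxa2, Dab2 and Pdgfra (6.61 ± 0.75, 2.93 ± 0.18 and 2.06 ± 0.26), their sum going from 5.98 ± 1.35 to 48.1 ± 12.5 CPM. Fibroblast markers summed to 91.1 ± 7.14 and 60.9 ± 5.11 CPM, mostly Fbln1. Of 8 tested, 3 rose, 3 fell and 2 did not pass, with Col1a2 and Col1a1 falling by 2.41 ± 0.24 and 0.97 ± 0.20 on the log2 scale, Fbln1 by 0.61 ± 0.15, and Dcn rising by 6.27 ± 0.52. Col3a1 and Postn, which rose by 8.16 ± 0.91 and 4.99 ± 0.93, were named after their values were seen. Of 5 tested neural markers 4 rose and 1 fell, and Sox3 rose by 2.26 ± 0.23. The part of any of these cell types in the 9 genes was not tested.

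Over the 15 TX1072 libraries, the genes whose log2 CPM were most like each adhesion gene were found among 11857 genes. For Cdh1 these were Agap1, E2f7 and Zfp36 (Pearson r 0.978, 0.975 and 0.975), which had r of 0.826, 0.923 and 0.896 over the 30 deletion-line libraries. For Epcam they were Cthrc1, Ahi1 and Parp12 (0.991, 0.989 and 0.987, and 0.935, 0.929 and 0.927 in the deletion lines). For Cdh2 they were Chmp4c, Hmg20b and Efna4 (0.958, 0.953 and 0.95, and 0.798, 0.758 and 0.781). For Vim they were Flna, Steap1 and Wnt6 (0.937, 0.932 and 0.927), and these fell to 0.448, 0.322 and 0.605 in the deletion lines. The libraries of a table share their days, so any genes that follow the time course correlate.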

How the data were processed

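Bulk RNA was measured in 15 TX1072 and 30 deletion-line libraries and 3′ UMIs in single TX1072 cells. The authors aligned reads with STAR 2.5.2b to mm10 masked at B6/Cast SNPs, counted exon-overlapping reads with featureCounts and split reads by allele, and deposited counts per gene and UMI counts per cell, neither of them normalized. Spike-in rows and a second row for part of Xist were left out.

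The members and gene lists were chosen with earlier results of these data known. All genes of a table passing edgeR's filterByExpr were fitted (edgeR 4.0.16, R 4.3.3, TMM, glmQLFit and glmQLFTest, 1 group per line and day), with Benjamini-Hochberg adjustment over all genes tested and a threshold of 0.05. B6 to Cast ratios were fitted on the AS counts, paired within a library; those of the deletion lines and the day 1 contrasts were added after the data had been seen. Bulk CPM used TMM-scaled library sizes and single-cell CPM the summed UMIs of a day. Replicates were separate differentiations of the same lines.

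Per the methods of the study, the replicate number therefore marks a shared day. Deviations of same-numbered libraries correlated at a median r of 0.126 in TX1072 (17 of 30 pairs over 0.1) and 0.133 in the deletion lines (79 of 135), against -0.068 (1 of 60) and -0.078 (42 of 270) for other numbers; the block was an alternative fit. Other alternatives were DESeq2 1.42.0, its size factors, no filter on low counts, at least 100 AS counts, and leaving out each library. Single cells were 1 culture a day and were not tested; cells were the 1472 retained of 2000 sites, no doublet caller was run, and Python 3.11.15 with scipy 1.17.1 gave exact intervals at 95%.

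Genes named beyond the 9 were, per list, up to 3 largest increases and 3 largest decreases in TX1072 between days 0 and 4 among genes that passed, had no overlap of replicates and a mean count of at least 100, besides Ctnnb1, Ctnna1 and Ctnnd1, and T as the most abundant streak marker; Ccn2, Col3a1 and Postn were named after their values were seen. The values of 1 gene that this rule names are not reported here. Likeness was Pearson's r of log2 CPM over libraries. On simulated data for TX1072 day 4 against day 0 (18222 genes), 79% of genes changed by a log2 fold of 1 and 100% of those changed by 2 were recovered, with 13 of 192 calls false; for TXdXicCast against TXdXicB6 at day 4 (19033 genes) these were 86%, 100% and 10 of 196. For the ratio change in TX1072, 77.5% of genes changed by 1 were recovered, with 10 of 165 calls false. In the simulations of level, 100 genes were changed at each fold, all with a mean above 1 CPM. In the data of TX1072, 59.6% of genes passed between these days. Same-numbered libraries were not tied in the simulations, and Snai2 lay below that level, so these rates need not hold for the 9 genes.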

Additional observations from a re-analysis of the deposited data

Results flagged for a closer look

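In 8 of 45 sets of 10 capture columns of a day, 1 column lay apart from the others, where chance flags about 1 in 20 sets of normally distributed values. These are sparse counts, for which that rate was not measured, so the number of such sets is not read against it. For Cdh2, column 4 of day 0 was at 22.84 CPM (79 UMIs in 22 cells, the next column being at 5.697 CPM). Of its cells, 59.09% held a Cdh2 UMI, beside 7.692 to 20.69% in the other columns of that day. Column 2 of day 3 was at 7.592 CPM (next 1.934 CPM) and column 3 of day 4 at 11.2 CPM (next 5.227 CPM). For Snai2, column 6 of day 2 was at 2.152 CPM and column 5 of day 3 at 3.495 CPM. For Zeb1, column 1 of day 2 was at 20.44 CPM (next 11.85 CPM). For Zeb2, column 7 was at 1.302 CPM at day 0 (6 UMIs) and at 18.8 CPM at day 4 (88 UMIs in 28 cells; next 8.746 CPM).

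The change of the Vim B6 to Cast ratio from day 0 to day 4 differed between the deletion lines by -0.5171 on the log2 scale in a test of the difference itself (edgeR adjusted p = 0.0164), with 3 replicates a group. It did not pass without replicate 1, 2 or 3 (edgeR adjusted p = 0.0655, 0.11 and 0.0671), and it rests on the day 0 libraries of TXdXicCast, whose RNA was degraded.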

How the results depend on the processing

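No result changed its direction past the threshold. Without the filter on low counts, the number of the 9 genes called was 1 between days 2 and 3 of TX1072 (2 with the filter), 2 between the deletion lines at day 0 (1) and 1 at day 3 (0); at day 4 it was 1, Vim in place of Cdh1. At day 3 it was also 1 with the replicate block and 1 with DESeq2. Besides Vim there, the block changed 2 calls, Zeb2 at day 1 and Snai2 at day 3 of TX1072, and no other call on the 9 genes. For the TX1072 ratio at day 4, DESeq2 called 2 members (4 with edgeR).

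Leaving out 1 library or replicate number at a time gave 3 to 5 members between days 1 and 2 of TX1072 (5 in full), 1 to 2 between days 2 and 3 (2), 0 to 1 between the deletion lines at day 4 (1), 2 to 3 for the TX1072 ratio at day 4 (4), 2 to 4 for the TXdXicCast ratio change from day 1 to day 4 (4) and 0 to 0 for the difference of the ratio change between the deletion lines (1). The cause was not tested.

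Over all genes, calls between the deletion lines moved by over 1.5 times: 80 at day 1 against 198 without the filter and 140 with DESeq2; 74 at day 2 against 200, 135 and, with the block, 124; 251 at day 3 against 575, 495 and 447; 1165 at day 4 against 1772 with the block; and 149 for the change from day 1 to day 4 against 412, 353 and 255. Few counts limit Snai2, and few AS counts limit Cdh2 and, at day 4, Zeb1.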
